A study of Mus musculus with 26 samples.

Results

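The chromatin at the promoters of 9 genes that encode Polycomb proteins was examined in mouse embryonic stem cells (mESCs). The genes are Ezh1, Ezh2, Eed and Suz12 (core subunits of Polycomb repressive complex 2, PRC2), Jarid2 (a PRC2 accessory subunit), Rnf2 (the catalytic subunit of PRC1, also called RING1B) and Cbx2, Cbx7 and Cbx8 (chromobox subunits of PRC1). They were taken by name from the 26180 genes with a RefSeq start site on the assembled chromosomes, and each was given, in every table of regions, the region that overlapped most with 1.5 kb either side of its start sites. Levels are log2 RPM per kb throughout, that is, reads scaled to the library size and to 1 kb of region on a log2 scale, so that genes with regions of different width can be set beside each other.

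PRC2 places methyl groups on lysine 27 of histone H3, through either Ezh2 or Ezh1, with Suz12 as the scaffold and Eed as the subunit that binds H3K27me3 already in place. PRC1 holds the ubiquitin ligase Rnf2, and its canonical forms carry a Cbx protein whose chromodomain reads H3K27me3. In embryonic stem cells many promoters of developmental genes carry H3K27me3 together with H3K4me3, the mark of active and CpG-rich promoters, and are called bivalent.

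The question was which promoters hold both marks on the same chromatin fragment, read out by sequential immunoprecipitation (reChIP) of small numbers of cells. K4-K27 denotes H3K4me3 followed by H3K27me3 and K27-K4 the opposite order. In-line totals were sequenced from the 10% of material kept back once the first round was done. The paper describes their signal as noisier, which it attributes as likely to the low starting material. The H3K4me3 antibody is reported to bind H3K4me2 as well. All cells were E14 mESCs kept in serum and LIF. The E14 group was the non-clonal wild-type line, with replicate 1 in sequencing batch A and replicate 2 in batch B. The WT group was the wild-type clones 57 and 58, and the DKO group was the clones 43 and 53 that lack both Dppa2 and Dppa4, small chromatin proteins of pluripotent cells. All clones were in batch C, so E14 and the clones differ in batch as well as in line, and these cannot be told apart. Each group of each ChIP held 2 libraries, and the control with IgG in both rounds (IgG–IgG) had 1 library in E14 (replicate 1) and 1 in the clones (WT clone 57), which also serves as the control of the DKO clones. Each clone is a line of its own, so a difference between genotypes rests on 2 clones a side, and p-values measure the spread between 2 libraries.

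Across the 26 libraries 6741244 to 47903462 reads stood behind the values, with a median of 16875025. Of 6 pluripotency genes, 5 (Pou5f1, Nanog, Sox2, Zfp42 and Tdgf1) had mean total H3K4me3 levels of 1.18 to 3.37 and total H3K27me3 levels of -2.54 to -1.61 over the 3 lines, and Esrrb carried both marks. Of 7 endoderm and mesoderm genes, Gata4, Gata6, Foxa2 and Mixl1 carried both marks, and the other 3 (Sox17, T and Eomes) had no region in the E14 total H3K4me3 table. Total H3K4me3 at the Dppa2 promoter was 1.94 and 0.88 in the WT clones and 2.14 and 1.33 in the DKO clones. Where the deletion lies is not given in the sources used here, so this level is no check of the knockout.

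Regions at the start sites separated Cbx2 and Cbx8 from the other 7 genes. All 9 genes had a region in the E14 total H3K4me3 table, against 53.2% of all genes, and all 9 in the E14 K27-K4 table, against 66.2%. Cbx8 alone had one in the E14 total H3K27me3 table, against 12.1% of all genes. In the clones, Cbx2 and Cbx8 were the 2 members with a region in the total H3K27me3 tables (15.8% of all genes for WT and 17.6% for DKO) and in the K27-K4 tables (33.7% and 32.1%). The K4-K27 tables of the clones held a region at all 9 members, against 59.4% of all genes for WT and 57.8% for DKO, whereas the E14 K4-K27 table held 6 (58.7% of all genes) and lacked Ezh1, Suz12 and Jarid2. All 9 had a region in the WT total H3K4me3 table (60.2% of all genes), and 8 in that of DKO (56.1%), where Cbx8 was missing.

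The promoters themselves are rich in CpG, and the 4 printed here are those of Ezh2 and Ezh1, the alternative catalytic subunits, and of Cbx7 and Cbx8, paralogs that differ in H3K27me3 in the results that follow. They come from RefSeq (GRCm38.p6, 250 bases before to 50 after the start), which matched 8 of the 9 members, all but Cbx2. Capitals mark CpG dinucleotides and each sequence is read 5′ to 3′ on the gene's strand.
Ezh2 (chr6:47594981-47595280, minus strand): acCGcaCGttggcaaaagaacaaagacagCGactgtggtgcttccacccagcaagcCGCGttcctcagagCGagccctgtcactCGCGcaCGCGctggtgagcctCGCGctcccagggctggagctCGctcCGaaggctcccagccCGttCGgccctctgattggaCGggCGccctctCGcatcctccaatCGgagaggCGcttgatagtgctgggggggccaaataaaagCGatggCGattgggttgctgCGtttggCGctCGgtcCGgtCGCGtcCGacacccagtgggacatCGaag
Ezh1 (chr11:101226414-101226713, minus strand): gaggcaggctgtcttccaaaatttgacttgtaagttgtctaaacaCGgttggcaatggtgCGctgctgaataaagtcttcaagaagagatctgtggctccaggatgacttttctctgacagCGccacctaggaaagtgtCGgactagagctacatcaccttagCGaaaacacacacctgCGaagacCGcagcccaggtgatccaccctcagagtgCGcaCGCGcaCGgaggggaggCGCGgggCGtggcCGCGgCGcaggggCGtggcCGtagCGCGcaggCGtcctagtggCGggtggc
Cbx7 (chr15:79932597-79932896, minus strand): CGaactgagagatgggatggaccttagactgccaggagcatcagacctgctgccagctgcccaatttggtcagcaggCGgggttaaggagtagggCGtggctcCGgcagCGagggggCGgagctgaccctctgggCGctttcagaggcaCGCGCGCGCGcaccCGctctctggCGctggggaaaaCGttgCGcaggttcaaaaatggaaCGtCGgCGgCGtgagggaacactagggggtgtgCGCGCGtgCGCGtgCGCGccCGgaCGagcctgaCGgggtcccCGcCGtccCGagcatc
Cbx8 (chr11:119040864-119041163, minus strand): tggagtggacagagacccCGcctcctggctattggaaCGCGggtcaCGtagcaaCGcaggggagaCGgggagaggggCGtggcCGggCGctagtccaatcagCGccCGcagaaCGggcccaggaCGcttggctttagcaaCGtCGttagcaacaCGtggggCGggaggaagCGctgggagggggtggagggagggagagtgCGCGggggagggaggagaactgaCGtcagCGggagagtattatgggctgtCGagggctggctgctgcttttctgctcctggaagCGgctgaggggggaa
They hold 31, 23, 33 and 24 CpG dinucleotides respectively, against a median of 7 over 32851 promoters. The motif words TTTCCCGC, TTTCGCGC, TTTGCCGC and TTTGGCGC, forms of the motif of the cell-cycle factor E2F, were searched on both strands with overlapping matches counted. A match lay once in the promoter of Ezh2 and once in that of Suz12, and 2.26% of all promoters held one. None of the 4 words is in the windows of the other 6 members with an entry. Over the wider 3-kb windows around the start sites the members held between 105 CpGs (Ezh1, percentile 71.6 of all genes) and 215 (Jarid2, percentile 98.1), with 190 at Ezh2, 182 at Suz12, 176 at Rnf2, 172 at Cbx2, 155 at Eed, 154 at Cbx8 and 125 at Cbx7. The 2 promoters with total H3K27me3 above IgG–IgG, Cbx2 and Cbx8, lie inside this range, and no test was made of it.

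The reChIP tables listed Cbx2 and Cbx8 in a single wide domain in E14 and in separate regions in the clones. Both start sites lie in 1 region of the E14 K27-K4 and K4-K27 tables, chr11:119016751-119067600 (mm10), 50850 bp wide. Only 6 of the 36235 regions of the E14 K27-K4 table, 0.0166%, are at least as wide, and the median is 2400 bp. Cbx2 starts at position 119023021 on the plus strand, where the lncRNA gene Gm35829 overlaps it, and Cbx8 starts 17892 bp downstream on the minus strand. In the clones a gap parts the genes. K27-K4 regions were 4800 bp wide at Cbx2 and 30600 bp at Cbx8 in WT, and 8550 and 33300 bp in DKO, and K4-K27 regions 2550 and 26550 bp in WT, and 3150 and 12900 bp in DKO. In DKO, K4-K27 regions of 4050 and 10650 bp directly follow the one at Cbx8. The unbroken stretch thus ends at position 119061000 in DKO and at 119060250 in WT. The tables of total H3K27me3 covered 51.0% of this domain in E14, 69.3% in WT and 88.2% in DKO. Regions of total H3K4me3 covered 42.5%, 19.8% and 17.1%. K27-K4 regions of the clones covered 71.7% (WT) and 82.3% (DKO), and K4-K27 regions 57.2% and 60.5%. The tables of E14 and the clones were made from separate region calls, so the covered length also moves with how much was called. Both E14 reChIP tables share the edges of 21857 regions, this domain among them, against 332 regions in WT and 199 in DKO. Its listing in both E14 orders is therefore not a separate finding for each order. Whether the domain itself differs between E14 and the clones was not tested.

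Because Cbx2 and Cbx8 share this domain, values per gene were read in the E14 total H3K4me3 table, which holds a separate region for each member. It was chosen after the values had been seen. The regions were 3150 bp for Ezh2 (chr6:47593501-47596650), 2700 bp for Ezh1 (chr11:101224051-101226750), 4050 bp for Eed (chr7:89978251-89982300) and 3300 bp for Suz12 (chr11:79991401-79994700). Those of Jarid2 (chr13:44728501-44736150) and Rnf2 (chr1:151499551-151501800) were 7650 and 2250 bp. The Cbx regions were 3750 bp for Cbx2 (chr11:119021851-119025600), 11250 bp for Cbx7 (chr15:79924951-79936200) and 11400 bp for Cbx8 (chr11:119034151-119045550). Each region spans the start site and reaches into the gene.

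The catalytic subunits carried H3K4me3 with total H3K27me3 below the IgG–IgG level. At Ezh2 total H3K4me3 was 0.99 and 1.5 in E14 replicates 1 and 2, 3.68 and 2.14 in WT clones 57 and 58, and 3.14 and 2.96 in DKO clones 43 and 53. Total H3K27me3 at Ezh2 was -1.95 and -2.74 in E14, -2.05 and -1.53 in WT and -3.04 and -2.04 in DKO, beside IgG–IgG levels of -0.40 in E14 and 0.35 in WT clone 57. Every H3K27me3 library of Ezh2 was thus lower than every H3K4me3 library and lower than its IgG–IgG library. In the same table of regions, 81.4% in E14, 64.4% in WT and 70.1% in DKO of all regions were called lower in H3K27me3 than in H3K4me3 (limma, log2 difference over 1 and adjusted p under 0.05). Its K4-K27 levels were -0.38 and 1.5 in E14, 3.75 and 2.85 in WT and 3.48 and 2.44 in DKO. K27-K4 at Ezh2 was 0.88 and 2.25 in E14, 0.31 and 0.34 in WT and 0.24 and -0.33 in DKO. In E14 both K27-K4 libraries were above IgG–IgG, and in the clones all 4 were at or below it. Behind the WT values stood 62 and 68 reads of K27-K4 and 392 and 244 reads of K4-K27.

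Ezh1, the alternative methyltransferase, had the lowest total H3K4me3 of the core subunits in the clones, with 2.76 and 1.49 in WT and 2.20 and 1.72 in DKO, beside 1.15 and 1.45 in E14. Its total H3K27me3 levels were -1.47 and -1.73 in E14, -1.11 and -1.23 in WT and -0.98 and -1.02 in DKO, with IgG–IgG at 0.23 (E14) and 0.78 (WT clone 57). All were below IgG–IgG, although they were the highest of the 4 core genes in each line. K4-K27 at Ezh1 was -0.22 and 1.01 in E14, 2.62 and 2.08 in WT and 2.21 and 1.87 in DKO. K27-K4 was 0.06 and 1.61 in E14, -1.33 and -1.06 in WT and 0.72 and 0.08 in DKO, from 17, 22, 104 and 49 reads in clones 57, 58, 43 and 53. The DKO clones were both above the WT clones here, with few reads behind the WT values.

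Eed, the H3K27me3-binding subunit, and Suz12, the scaffold, had the same arrangement. Total H3K4me3 at Eed was 1.14 and 1.59 in E14, 3.34 and 1.89 in WT and 3.06 and 2.54 in DKO, and its total H3K27me3 was -3.05 and -2.76, -2.76 and -2.66, and -3.40 and -2.34 in the same order. Suz12 had total H3K4me3 levels of 1.05 and 1.71, 3.51 and 1.82, and 3.09 and 2.55, and total H3K27me3 levels of -1.76 and -2.91, -2.93 and -1.88, and -3.11 and -2.05. At both genes, as at Ezh2, every total H3K27me3 level was below every total H3K4me3 level. K4-K27 at Eed was -1.16 and 1.11 in E14, 3.21 and 2.64 in WT and 3.42 and 2.77 in DKO, and at Suz12 -0.64 and 1.10, 3.33 and 2.46, and 3.12 and 2.39. Their K27-K4 levels were 0.36 and 1.59 (E14), -0.17 and -0.23 (WT) and -0.10 and -0.01 (DKO) for Eed, and 0.98 and 2.02, -0.50 and -0.73, and -0.68 and -0.23 for Suz12. Eed had the lowest IgG–IgG level of the members, -0.84 in E14 and -1.33 in WT clone 57. Among the 7 promoters with total H3K27me3 below IgG–IgG, only Eed had K27-K4 above IgG–IgG in all 4 clone libraries, by 1.10 to 1.32.

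Jarid2, which helps to bring PRC2 to chromatin, and Rnf2, the PRC1 ligase, differed little from the core. At Jarid2 total H3K4me3 ranged over the 6 libraries from 1.31 to 3.50 and total H3K27me3 from -3.54 to -1.70, and at Rnf2 from 0.98 to 3.64 and from -2.56 to -1.05. K4-K27 was -0.89 and 0.97 in E14, 3.09 and 2.37 in WT and 3.09 and 2.35 in DKO at Jarid2, and -0.40 and 1.38, 2.84 and 3.16, and 3.49 and 2.53 at Rnf2. K27-K4 was 0.87 and 1.77 (E14), -0.55 and -0.25 (WT) and -0.66 and -0.27 (DKO) at Jarid2, and 0.78 and 2.35, -0.25 and -0.56, and -0.32 and -0.41 at Rnf2. In the clones every K27-K4 library of both genes was below IgG–IgG, which was 0.61 at Jarid2 and 0.39 at Rnf2, and every K4-K27 library was above it.

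Among the chromobox genes Cbx7 resembled the core subunits, and Cbx2 and Cbx8 did not. Total H3K27me3 at Cbx7 was -1.65 and -2.24 in E14, -2.70 and -2.25 in WT and -2.98 and -2.13 in DKO. At Cbx2 it was 0.15 and 0.13 in E14, 0.62 and 0.47 in WT and 1.18 and 0.71 in DKO, and at Cbx8 0.92 and 0.76, 2.50 and 1.66, and 2.16 and 1.99. Cbx2 and Cbx8 exceeded IgG–IgG (0.04 and 0.44 in E14, -0.19 and 0.69 in WT clone 57) in all 6 libraries, and the other 7 members were below it in all 6. In E14 Cbx2 did so by only 0.11 and 0.094, from 51 and 131 reads beside 34 of IgG–IgG, and it had no region in the E14 total H3K27me3 table. Among 11677 promoter regions of this table the mean total H3K27me3 of Cbx8 stood at percentile 98.3 in E14, 98.2 in WT and 98.1 in DKO, and that of Cbx2 at 86.3, 80.2 and 83.3. That of Ezh1, though below IgG–IgG, stood at 43.6, 55.1 and 56.5. The levels of the 7 members below IgG–IgG rested on few reads, 6 to 44 in E14 replicate 1 and 8 to 32 in WT clone 57.

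Cbx2 had a total H3K4me3 level of 1.19 and 1.57 in E14, 3.33 and 1.96 in WT and 2.64 and 2.46 in DKO, within the range of the 4 core subunits in 5 of the 6 libraries and above it in E14 replicate 1. Cbx8 had 1.11 and 1.03, 1.92 and 0.97, and 1.56 and 1.51, the lowest of the members in the clones, at percentile 25.9 of promoter regions in E14, 7.93 in WT and 12.5 in DKO. Its level is averaged over 11400 bp, within which WT total H3K4me3 regions of 1500 and 2700 bp lie. The part of this width in its rank was not tested. Cbx7 had 0.96 and 1.39, 2.62 and 1.38, and 2.67 and 2.19. WT clone 57 gave higher total H3K4me3 than clone 58 at all 9 members, and the difference between these clones was larger than that between the genotype means at each.

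K27-K4 set Cbx2 and Cbx8 apart in every line. Cbx2 had K27-K4 levels of 2.46 and 4.01 in E14, 2.44 and 1.91 in WT and 2.83 and 2.48 in DKO. Cbx8 had 3.11 and 4.62, 3.78 and 3.11, and 3.32 and 3.02. In each of the 6 libraries both stood above all 7 other members, of which Cbx7 was at 0.34 and 1.34 in E14, -1.33 and -1.21 in WT and -1.0 and -0.33 in DKO. K4-K27 separated them in E14 alone, where Cbx2 was at 2.25 and 2.85 and Cbx8 at 3.20 and 3.44, beside -1.80 and 0.52 at Cbx7. In the clones K4-K27 at Cbx2 (3.71 and 2.95 in WT, 3.59 and 2.55 in DKO) and Cbx8 (3.17 and 3.02, 3.22 and 2.6) lay within the range of the other 7 members, apart from Cbx2 in DKO clone 43, which was the highest of all. Cbx7 was lowest in WT clones 57 and 58, with 2.08 and 0.97, and had 2.20 and 1.92 in DKO.

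**Figure D1:**
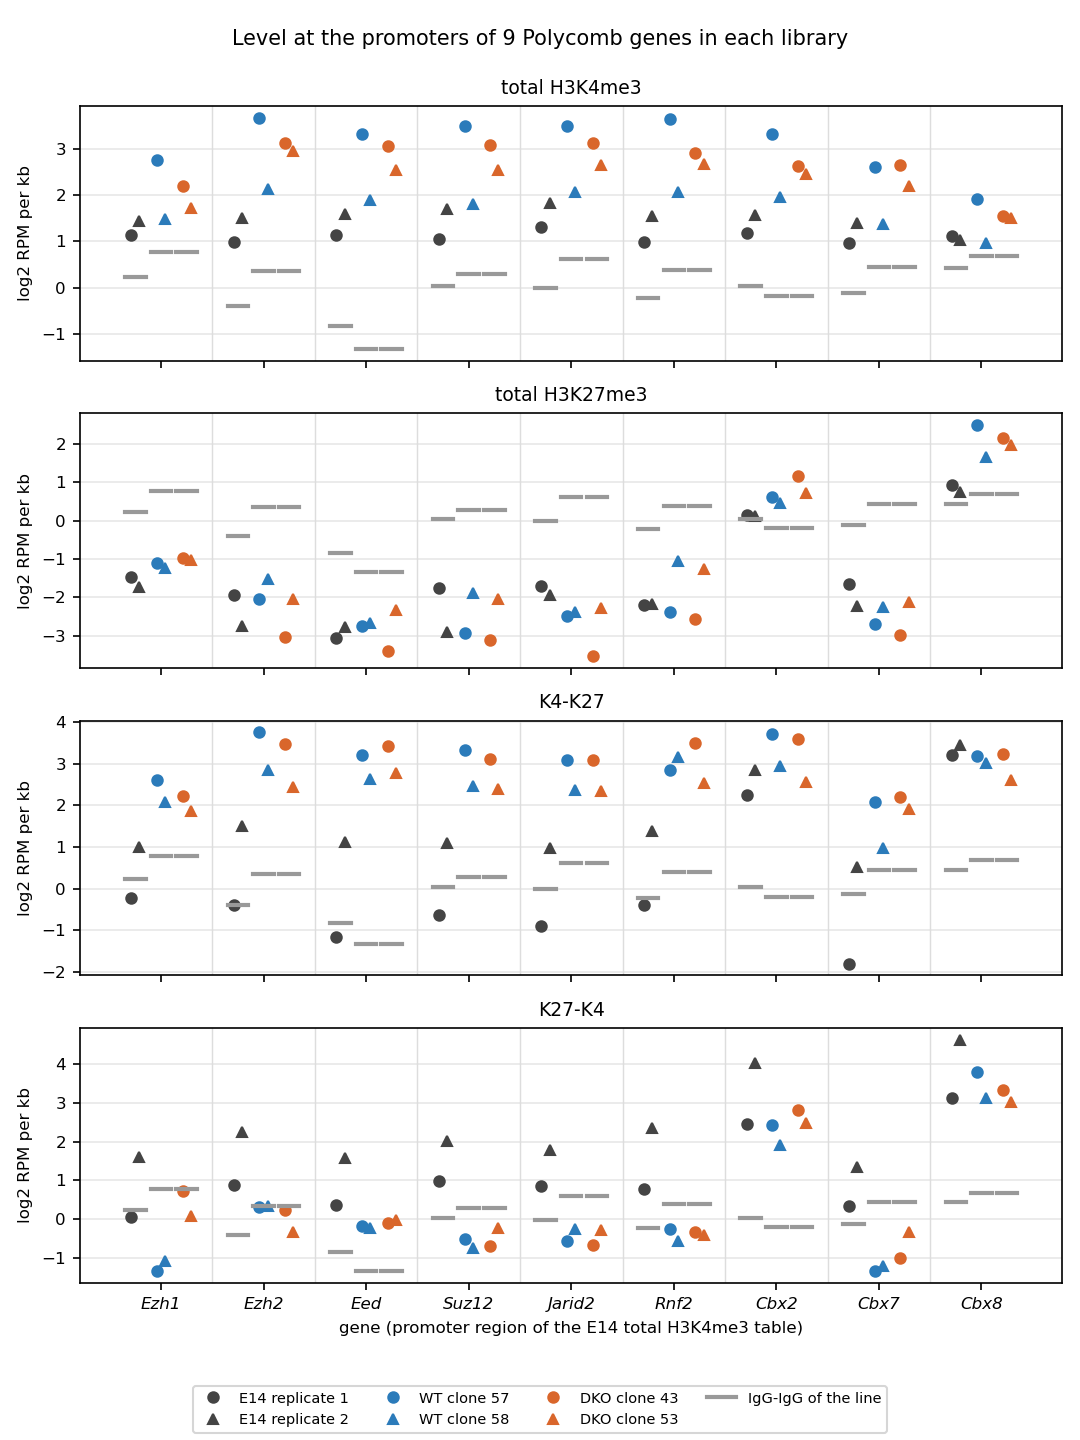
Level of each member in every library on the y axis (log2 RPM per kb), with 1 panel per ChIP, symbols for the libraries and grey bars for IgG–IgG. Cbx2 and Cbx8 lie above the other 7 members in total H3K27me3 and K27-K4 in all 6 libraries, and in K4-K27 in E14.

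The balance of the in-line totals was tested as total H3K27me3 minus total H3K4me3 at the regions of the E14 K27-K4 table, with limma over 36235 regions, and a region was called where the log2 difference exceeded 1 and the adjusted p was under 0.05. The marks come from different antibodies, so the zero of this difference is arbitrary. All 7 members other than Cbx2 and Cbx8 were called lower in H3K27me3 in each line, against 40.2% of all regions in E14, 37.4% in WT and 37.3% in DKO. In E14 the differences were -2.97 ± 0.28 (SE) at Ezh1, -3.34 ± 0.33 at Cbx7, -3.44 ± 0.35 at Rnf2, -3.45 ± 0.30 at Jarid2, -3.60 ± 0.42 at Ezh2, -3.88 ± 0.42 at Suz12 and -4.25 ± 0.41 at Eed (n = 2 libraries a mark, limma adjusted p from 1.85e-05 to 3.84e-05). Neighbours in this order differed by less than the sum of their SEs. In the WT clones the differences of the 7 ran from -3.56 (Ezh1) to -5.37 (Eed) and in the DKO clones from -3.18 (Ezh1) to -5.97 (Suz12). Over all regions the median difference was -0.61 in E14, -0.73 in WT and -0.21 in DKO.

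The shared region of Cbx2 and Cbx8 was not called in any line. Its difference was 0.14 ± 0.12 (SE) in E14 (limma adjusted p = 0.354), 0.64 ± 0.76 in WT (adjusted p = 0.548) and 0.68 ± 0.17 in DKO (adjusted p = 0.00699, but below 1). Centring each library on its median over the regions gave 1.54 in WT and 1.27 in DKO, both called higher. On the narrower H3K4me3 regions the genes parted, with Cbx2 called lower in H3K27me3 at -1.24, -2.10 and -1.61 in E14, WT and DKO, where 81.4%, 64.4% and 70.1% of regions were called lower, and Cbx8 at -0.23, 0.63 and 0.54, not called. In WT, Ezh1, Ezh2, Suz12 and Rnf2 were not called without the total H3K27me3 library of clone 57. Their differences were then -3.91, -4.44, -4.72 and -4.16. Ezh1 was not called without that of clone 58 either (-3.21).

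**Figure D2:**
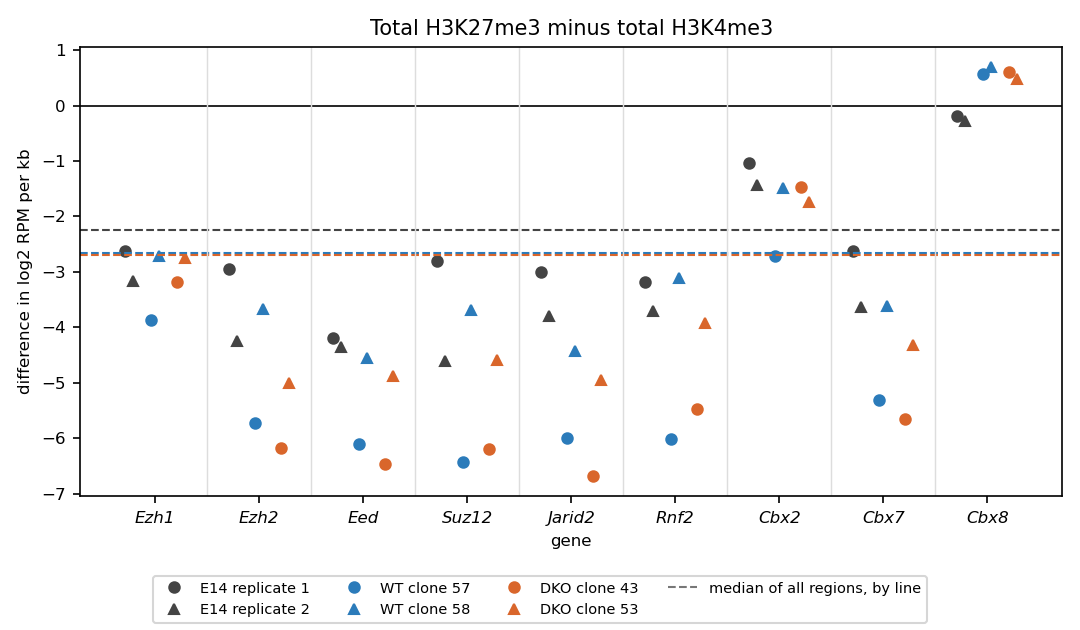
Total H3K27me3 minus total H3K4me3 (difference in log2 RPM per kb, y axis) for each member and pair of libraries at the E14 total H3K4me3 regions, with dashed lines at the median of all regions by line. Only Cbx8 lies near 0, Cbx2 lies above the medians or level with them, and the other 7 members lie lower.

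The order of immunoprecipitation shows whether a promoter gives the same signal from both sides. In E14 the 6 members listed in both reChIP tables had K27-K4 minus K4-K27 differences of 0.48 to 1.47, with none called by limma, as 0 of 21857 regions were (0.0%; 55 were higher at an unadjusted p under 0.05). Fitted with the replicate block, 1523 regions passed, Cbx7 among them (1.47, limma adjusted p = 0.0470). At the H3K4me3 regions, on which the rest of this comparison rests, the E14 differences of the 9 members were 0.45 to 1.49 and the median of all regions was 0.90. Leaving out 1 library moved that median to between 0.22 (without K4-K27 replicate 1) and 1.61 (without K4-K27 replicate 2) and the members to between -0.33 (Ezh1, without K27-K4 replicate 2) and 2.65 (Cbx7, without K4-K27 replicate 2). None was called (0.0% of 21970 regions), and with the block Suz12 (1.27, limma adjusted p = 0.0398) and Rnf2 (1.07, adjusted p = 0.0483) were. In simulated data of this comparison 3.5% of differences of 3 log2 units were recovered, so few calls could be made in E14.

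In the clones K27-K4 was lower than K4-K27 at the 7 promoters with total H3K27me3 below IgG–IgG. In WT the differences were -2.98 ± 0.56 (SE) at Ezh2, -3.54 ± 0.65 at Ezh1, -3.12 ± 0.56 at Eed, -3.51 ± 0.57 at Suz12, -3.13 ± 0.57 at Jarid2, -3.41 ± 0.56 at Rnf2 and -2.79 ± 0.76 at Cbx7, that is, 6.93-fold (Cbx7) to 11.7-fold (Ezh1) lower (limma adjusted p from 8.36e-08 to 0.00104). All 7 were called, against 37.4% of all regions called lower, with a median over all regions of -1.22. Centring each library on its median turned the median over all regions to 0.51, so the folds depend on the scaling. Cbx2, at -1.16 ± 0.61, was not called (limma adjusted p = 0.129), although with the clone as a block it was (1.68e-05), and Cbx8 was at 0.35 ± 0.65 (0.755). The call at Cbx7 was lost without the K4-K27 library of clone 57 (-2.24, adjusted p = 0.0526).

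The DKO clones gave the same calls. Differences were -3.0 ± 0.46 (SE) at Ezh2, -3.15 ± 0.46 at Eed, -3.21 ± 0.47 at Suz12, -3.18 ± 0.47 at Jarid2, -3.38 ± 0.47 at Rnf2 and -2.73 ± 0.50 at Cbx7, and that of Ezh1 was -1.64 ± 0.47, a 3.11-fold decrease (limma adjusted p from 3.50e-11 to 0.00145). These 7 were called, against 46.5% of all regions called lower and a median of -1.14. Cbx2 was at -0.42 ± 0.48 (adjusted p = 0.531) and Cbx8 at 0.26 ± 0.49 (0.731). Ezh1 was not called without the K27-K4 library of DKO clone 53 (-1.32, adjusted p = 0.194). Centring the libraries turned the split of called regions from 126 higher and 8224 lower to 5876 and 2204 in WT, and from 248 and 10226 to 7415 and 2266 in DKO. Under it Cbx8 was called higher in both lines (2.08 and 2.05), Cbx2 was at 0.57 in WT and 1.37 in DKO (called), Ezh1 in DKO was at 0.16, and Cbx7 was no longer called, at -1.06 in WT and -0.93 in DKO.

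**Figure D3:**
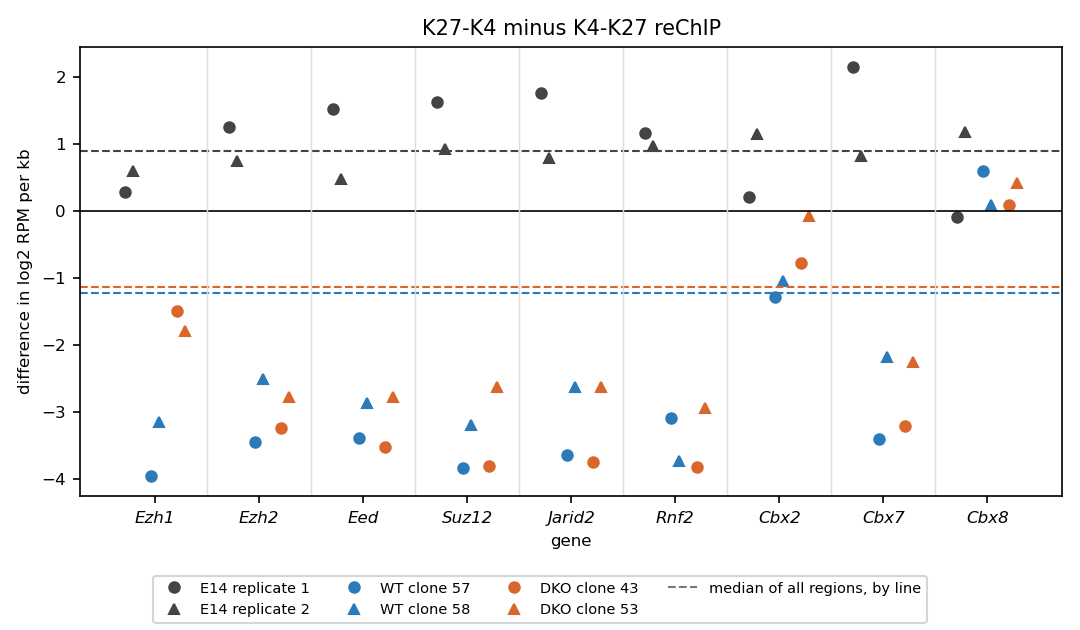
K27-K4 minus K4-K27 (difference in log2 RPM per kb, y axis) for each member and pair of libraries at the E14 total H3K4me3 regions. In the clones the 7 members other than Cbx2 and Cbx8 lie below 0, and Cbx8 lies near it.

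The effect of order was larger in the WT clones than in E14 at the same 7 promoters. The interaction of order and line was called at all 7, from -3.98 (Ezh2) to -4.78 (Suz12), with SE of 1.24 to 1.49 and limma adjusted p of 0.0242 to 0.0319, against 21.0% of all regions called lower and a median of -2.15. It was -1.84 ± 1.15 (SE) at Cbx2 (adjusted p = 0.228, and 4.14e-04 with the block) and -0.20 ± 1.16 at Cbx8 (0.903). Without E14 K4-K27 replicate 1, E14 K27-K4 replicate 2 or any 1 of the 4 WT libraries, none of the 7 was called, while their differences ran from -2.99 (Eed) to -5.22 (Suz12). In those fits at most 1 of the 21970 regions was called, with 4000 to 7400 lower at an unadjusted p under 0.05. Without E14 K4-K27 replicate 2 or E14 K27-K4 replicate 1 all 7 were. Centred, 5 of the 7 were called lower (Ezh2, Eed, Suz12, Jarid2 and Rnf2), Ezh1 (-1.31) and Cbx7 (-1.59) were not, and Cbx8 was called higher (2.48). Between DKO and WT clones no member was called in the same interaction (0.0182% of regions were), with differences of -0.09 to 1.91.

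Between the DKO and WT clones no member passed the threshold at the regions of the clones' own tables. In total H3K4me3 the DKO minus WT differences of the 9 members were -0.14 to 0.43 with a median of 0.15 (median of all 64063 regions 0.13), and in K4-K27 -0.51 to 0.44 with a median of -0.17 (median of 53855 regions -0.01). The direction of these medians rests on single libraries. That of total H3K4me3 was 0.85 without WT clone 57, -0.64 without WT clone 58 and -0.057 without DKO clone 43, and that of K4-K27 was 0.13 without WT clone 57 and 0.28 without DKO clone 53. Calls were made at 2.72% and 1.19% of regions. In total H3K27me3, with 2.75% called, Cbx2 differed by 0.25 ± 0.41 (SE, limma adjusted p = 0.844) and Cbx8 by 0.03 ± 0.42 (0.986). In K27-K4, with 2.26% called, Cbx2 differed by 0.51 ± 0.46 (adjusted p = 0.539) and Cbx8 by -0.31 ± 0.55 (0.766). The other 7 members had no region in these H3K27me3 and K27-K4 tables, so they were tested at the E14 total H3K4me3 regions. There no member was called in total H3K27me3 (differences -0.75 to 0.40 with a median of -0.16, and 1.27% of regions called). Here too the sign of the median turned, to 0.11 without WT clone 58 and 0.17 without DKO clone 43.

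Ezh1 was the exception in K27-K4. At the E14 total H3K4me3 regions its K27-K4 level rose from -1.20 in WT to 0.40 in DKO, a difference of 1.60 ± 0.53 (SE, limma adjusted p = 0.0478) or 3.04-fold, where 1.16% of regions were called higher, and the other 8 members were between -0.37 and 0.60. The median of the 9 was 0.15, and 0.084 to 0.20 with 1 library left out. In DKO both clones still lay below the IgG–IgG level of 0.78. The call was lost without the variance trend and robust estimation (adjusted p = 0.206) and without WT clone 57 (0.0891), DKO clone 43 (0.928) or DKO clone 53 (0.191).

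The chromobox genes were compared with core PRC2 as the median enrichment over IgG–IgG (a difference in log2 RPM per kb) of Cbx2, Cbx7 and Cbx8 minus that of Ezh1, Ezh2, Eed and Suz12, at the regions of the E14 K27-K4 table. The Cbx median is the shared region of Cbx2 and Cbx8 in every library, so the values describe that region and not Cbx7, and no test was made of a score over members. In total H3K27me3 the shared region was higher than the core median by 2.47 and 2.80 in E14 replicates 1 and 2, by 3.92 and 3.23 in WT clones 57 and 58 and by 4.56 and 3.48 in DKO clones 43 and 53. In K27-K4 it was higher by 1.27 and 1.52, 3.36 and 2.82, and 2.55 and 2.67. All 12 of these values are above 0. K4-K27 split by line, at 2.81 and 1.13 in E14, -0.88 and -0.13 in WT and -0.48 and -0.26 in DKO. Total H3K4me3 over this wide region differed from the core median by -0.72 and -1.35, -2.03 and -1.22, and -1.89 and -1.59. At the separate regions of the E14 total H3K4me3 table the total H3K4me3 level of Cbx2, without subtraction, was 3.33, 2.64 and 2.46 in clones 57, 43 and 53. Core medians were 3.42, 3.08 and 2.54, and only in clone 58 was Cbx2 higher (1.96 beside 1.85). In enrichment over IgG–IgG Cbx2 was not lower than the core in the clones. It had 3.52 and 2.15 in WT and 2.83 and 2.65 in DKO beside core medians of 3.28 and 1.66, and 2.79 and 2.43. There Cbx7 was near or below the core in total H3K27me3, with -1.53 and -2.11 in E14, -3.14 and -2.69 in WT and -3.43 and -2.57 in DKO beside core medians of -1.75 and -2.15, -2.15 and -1.95 (WT), and -2.73 and -2.07 (DKO).

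**Figure D4:**
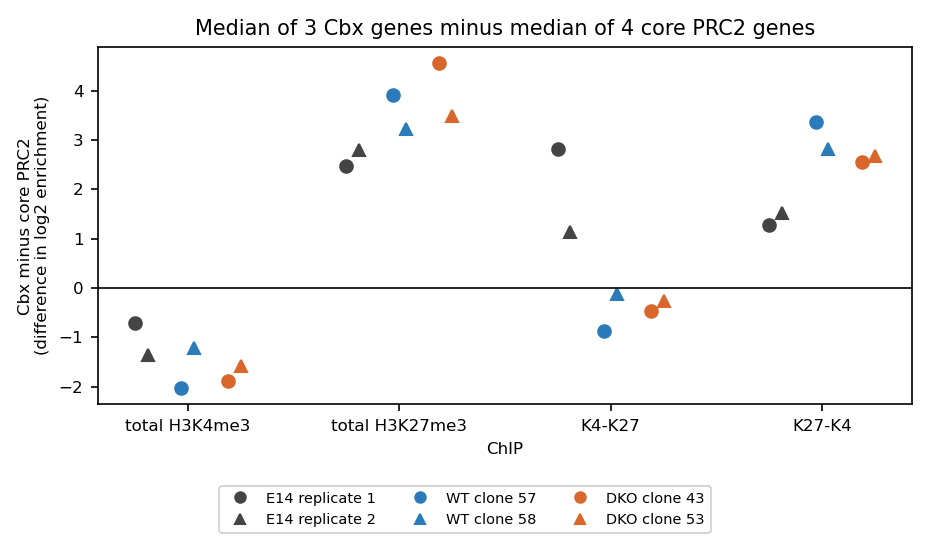
Median enrichment of the Cbx genes, which is that of the region shared by Cbx2 and Cbx8, minus that of core PRC2 (difference in log2 RPM per kb, y axis) by ChIP and line, with 1 point per library. Total H3K27me3 and K27-K4 lie above 0 and total H3K4me3 below it in all 6 libraries, while K4-K27 is above 0 in E14 and below it in the clones.

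By likeness of the 8 E14 enrichments among 17312 genes with a region in the E14 K27-K4 table, the genes nearest to the Cbx median were Gsx1, a homeobox gene (Euclidean distance 0.205), Slc30a3, a zinc transporter (0.225), and Gm51803 (0.241). Nearest to the core PRC2 median were Mgrn1, a ubiquitin ligase (0.346), and Aldh7a1 and Phax (both 0.348), which share 1 region. Mean enrichment in total H3K27me3 was 0.75 at Gsx1 and -2.14 at Mgrn1.

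Of 44 further genes of Polycomb complexes, their opposing enzymes and the H3K4 methyltransferases, none was called between DKO and WT clones at the regions of the clones' tables. At the E14 total H3K4me3 regions, Scml2, a PRC1-associated gene, was called higher in total H3K27me3 in DKO (1.71 ± 0.48 SE, limma adjusted p = 0.0348, with 0.401% of regions called higher), from -1.73 and -1.81 in WT to -0.04 and -0.07 in DKO. Scml2 was not called by limma without a variance trend and robust estimation (adjusted p = 0.461). It was also not called without the total H3K27me3 library of WT clone 58, DKO clone 43 or DKO clone 53, with differences of 1.67, 1.70 and 1.73. In the balance of totals, 32 (E14), 31 (WT) and 33 (DKO) of the 43 with a region were called lower in H3K27me3, against 40.2%, 37.4% and 37.3% of all regions, and none was called higher. In the order of immunoprecipitation at the E14 total H3K4me3 regions 0, 29 and 30 of 39 were called lower, against 0.0%, 37.4% and 46.5% of all regions. Pooled over all comparisons and both directions, the genes called were Aebp2, Ash2l, Asxl1, Asxl2, Auts2, Bap1, Bcorl1, Cbx6, Cxxc1, Dpy30, Epop, Kdm2b, Kdm6a, Kdm6b, Kmt2a, Kmt2b, L3mbtl2, Lcor, Lcorl, Mtf2, Pcgf1, Pcgf2, Pcgf3, Phc1, Phc3, Phf1, Rbbp4, Rbbp5, Rbbp7, Ring1, Rybp, Scml2, Setd1a, Setd1b and Wdr5. No share of all regions was computed for this pool, and a single comparison called up to 46.5% of regions lower. The list only names genes and is no result about them.

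Some of the further genes had H3K27me3 regions at their start sites. Bmi1, Pcgf5, Phc2, Yaf2, Bcor and Auts2, which are on the list of PRC1 genes, had regions in both clone tables of total H3K27me3 and both of K27-K4. They are 13.6% of the 44, near the 11.2% of all 26180 genes with such regions. Phf19, a PRC2 accessory subunit, had regions in both clone tables of K27-K4 and in that of E14 total H3K27me3, and its total H3K27me3 levels were 0.86 and 0.67 in E14, 1.72 and 1.12 in WT and 1.71 and 1.56 in DKO. Cbx6, the neighbour of Cbx7 on chromosome 15, had total H3K27me3 levels of -1.47 and -2.00 in E14, -1.86 and -1.92 in WT and -2.39 and -1.49 in DKO. In E14 K27-K4 enrichment over IgG–IgG the highest of the 43 with a region were Bcorl1 (4.21), Bmi1 (3.98) and Pcgf5 (3.67) and the lowest Cbx6 (1.27), Setd1b (1.29) and Kmt2b (1.30). The shared region of Cbx2 and Cbx8 was at 3.07, Ezh2 at 1.97, Eed at 1.77, Rnf2 at 1.75, Suz12 at 1.58 and Jarid2 at 1.38. Cbx7 at 1.03 and Ezh1 at 0.68 were both below all of the 43.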

How the data were processed

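The authors trimmed reads, aligned them to mm10 with BWA 0.7.13, marked duplicates with Picard 2.6.0 and quantified the 26 libraries in SeqMonk over 12 tables of regions. The deposited values are log2 RPM per kb, from reads extended by 200 bp whose mapping quality exceeded 20. Duplicates were kept and IgG–IgG was not subtracted. The study's methods describe peaks called with EPIC2, and whether the regions of the tables are those peaks is not given in the sources used here. The tables also hold 32 columns of no sample used here. All values were whole reads within 0.02, with 0 entered as 0.9 reads. Low reads limit the precision of low values.

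The deposited log2 values were tested with limma 3.58.1 (R 4.3.3; lmFit, eBayes with trend and robust estimation), two-sided, with Benjamini-Hochberg adjustment over all regions of the set. The authors used edgeR on counts that were not analysed here. Each fit held the 4 libraries compared (8 for interactions). Intervals are SE. Figures and summaries used Python 3.11.15. Start sites and promoters were RefSeq's for GRCm38.

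The members and lists were chosen with earlier results of these data known. All 9 members are named. Of the further genes those called, and the 3 highest and 3 lowest in E14 K27-K4 enrichment, are named, and for likeness the 3 nearest. A further gene of the list is not reported here. Bmi1, Pcgf5, Cbx6 and the genes with regions in the clone H3K27me3 tables were also described after their values were seen.

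Libraries of the same clone, or of the same E14 replicate and batch, were taken as pairs by origin. The correlation of deviations within pairs was 0.167 for the E14 reChIPs, and between -0.07 and 0.06 for the E14 totals and the clones. In simulated data with 200 regions moved by 3 log2 units, recovery ranged from 3.5% (order in E14) to 86.5% (balance in DKO) in sets of 21970 or more regions. Alternatives covered the scaling, variance model, filter on low values, libraries in the fit, block, each library left out, promoter width, IgG–IgG and the set of regions.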

Additional observations from a re-analysis of the deposited data

Results flagged for a closer look

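The effect of order (K27-K4 minus K4-K27, in log2 RPM per kb) differed between WT clones and E14 at 7 members by an interaction term in limma on 8 libraries, 2 per order and line, at the E14 total H3K4me3 regions. The difference was -3.99 at Ezh1 (limma adjusted p = 0.0318), -3.98 at Ezh2 (0.0250), -4.12 at Eed (0.0263), -4.78 at Suz12 (0.0242), -4.40 at Jarid2 (0.0246), -4.48 at Rnf2 (0.0242) and -4.28 at Cbx7 (0.0319). Over all regions 21.0% were called lower. With each library centred on its median, Ezh1 and Cbx7 were not called. None of the 7 was called without E14 K4-K27 replicate 1, E14 K27-K4 replicate 2 or any 1 of the 4 WT libraries, with differences of -2.99 to -5.22. At each of the 7, K27-K4 was lower than K4-K27 in both WT clones and higher in the mean of E14. Replicates 1 and 2 of E14 were sequenced in batches A and B and the clones in batch C, and line and batch cannot be told apart.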

How the results depend on the processing

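Counts of called regions moved as follows. DKO against WT, total H3K4me3 (1745 called): 3899 centred, 336 without the lowest quartile, 735 with all 16 libraries in 1 fit, 457 at the E14 total H3K4me3 regions, and 74 to 6018 leaving out each library. Total H3K27me3 (1468): 0 centred, 314 without the lowest quartile, 0 with 16 libraries, 280 at those regions, and 133 to 650. K4-K27 (643): 7715 with no variance trend, 7602 with 16 libraries, and 243 to 558. K27-K4 (1341): 482 to 8630. At the E14 total H3K4me3 regions, total H3K27me3 (280) gave 0 with no trend and 21 to 753, and K27-K4 (1267) gave 118 with no trend and 472 to 2629.

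With the replicate block, calls for order rose from 0 to 1523 in E14, from 7 to 59 in WT and from 16 to 30 in DKO, and at the E14 total H3K4me3 regions from 0 to 3258 in E14. The interaction of WT with E14 rose from 4618 to 11812. The other counts stayed within 1.5 times of those without the block, and member calls changed only where given beside the results. Order in WT (7) was 2 centred, 1 with no trend, 8350 at the E14 total H3K4me3 regions and 0 without any 1 library. Order in DKO (16) was 6, 1 and 10474 under the same settings and 0 to 71. At those regions order in E14 gave 88 centred, order in WT 4439 to 9555, and order in DKO 6596 to 11517 leaving out each library. The interactions gave 0 to 10070 (WT with E14) and 0 to 41 (DKO with WT, 4), the latter also 0 centred and 0 with no trend. The balance in WT gave 5339 to 19520, and its split turned from 1967 higher and 14572 lower to 8437 and 10431 in E14 when centred, from 1733 and 13567 to 10162 and 11238 in WT, and from 4067 and 13502 to 11284 and 11469 in DKO.

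The Cbx minus core PRC2 means kept their sign under every alternative run. The wider promoter window gave the same values in every library, so it tested nothing. At the E14 total H3K4me3 regions the Cbx median of total H3K4me3 was the value of Cbx7, not that of the shared region. The means there were -0.19 (E14 total H3K4me3), 2.05 (E14 total H3K27me3), -0.91 and 2.78 (WT totals), -0.63 (DKO total H3K4me3) and 2.83 (DKO K27-K4). At the E14 K4-K27 regions they were 1.20 (E14 K27-K4), -2.32, -1.22 and 2.20 (WT total H3K4me3, K4-K27 and K27-K4) and -2.47, -1.27 and 2.11 (the same in DKO). With IgG–IgG not subtracted they were 2.92 and 1.78 (E14 total H3K27me3 and K27-K4) and -2.07, -0.84 and 2.36 (DKO total H3K4me3, K4-K27 and K27-K4). WT K4-K27 then gave -1.14 in clone 57 and -0.53 in clone 58. Counting Jarid2 with core PRC2, or leaving out Ezh1, gave 2.73 in DKO K27-K4.

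The members given only by a range between DKO and WT are given by their medians beside each such result. Values printed for single members changed sign as follows. Cbx8 in DKO against WT total H3K27me3 was -0.0049 centred and -0.0056 at the E14 total H3K4me3 regions. In the balance there, Cbx2 was -1.24, -2.10 and -1.61 and Cbx8 -0.23 in E14. Centred order was -0.51 (Ezh1), -0.27 (Cbx2) and -0.41 (Cbx8) in E14, 0.57 (Cbx2, WT), and 0.16 (Ezh1) and 1.37 (Cbx2) in DKO, and the centred interaction was 0.84 (Cbx2) and 2.48 (Cbx8). Leaving out each library gave DKO against WT ranges of -0.17 to 0.67 (Cbx2) and -0.37 to 0.43 (Cbx8) in total H3K27me3 and -0.65 to 0.0273 (Cbx8, K27-K4). It gave order ranges in E14 of -0.33 to 1.22 (Ezh1), -0.14 to 2.14 (Eed), -0.0902 to 1.46 (Cbx2) and -0.21 to 1.30 (Cbx8), in DKO of -0.94 to 0.10 (Cbx2) and -0.0509 to 0.57 (Cbx8), and an interaction range of -0.95 to 0.55 (Cbx8). Where a library was left out, the lone library of its group was assumed to vary like the other groups. The causes were not tested.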

Other observations

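Esrrb, a pluripotency factor, carried both marks in these cells, unlike the other 5 pluripotency genes examined. Its total H3K27me3 level was 0.90 and 0.65 in E14, 2.41 and 2.01 in WT and 1.85 and 1.79 in DKO, and its total H3K4me3 level was 1.13 and 1.03, 2.33 and 1.64, and 2.48 and 2.04. K27-K4 at Esrrb was 3.36 and 4.94, 4.49 and 3.69, and 4.16 and 3.48, above both Cbx2 and Cbx8 in each of the 6 libraries. Pcgf5, a PRC1 subunit, had K27-K4 levels of 3.45 and 5.13 in E14, 4.71 and 3.91 in WT and 3.80 and 3.54 in DKO, beside total H3K27me3 of 0.47 and 0.22, 1.69 and 1.19, and 1.65 and 1.66. These genes were chosen for description after their values were seen, and no test was made of them.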
